A study of Mus musculus with 3 samples.

Results

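The insulin-like growth factor (IGF) system was examined in mouse embryonic fibroblasts (MEF) through 10 genes: the ligands Igf1 and Igf2, the receptors Igf1r and Igf2r, and the binding proteins Igfbp2, Igfbp3, Igfbp4, Igfbp5, Igfbp6 and Igfbp7. Every array feature whose gene name was 1 of these symbols was taken, which gave 15 probes on 29 spots, out of 55681 gene probes that carry 35696 gene names. The cells were C57BL/6 MEF, grown in medium with serum. They were left as the control, or cultured with n-butylidenephthalide (BP), a compound of the medicinal root Angelica sinensis, at 10 µg/ml (BP10) or at 40 µg/ml (BP40). The labels give the control no treatment, whereas the study's text describes it as DMSO, the solvent of BP. Each condition was measured on 1 array, with no replicate culture, so no test between conditions is possible and no p-value is given.

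IGF1 and IGF2 are secreted growth factors that signal through the receptor tyrosine kinase IGF1R, which recruits insulin receptor substrate proteins and feeds the PI3K-AKT and MAPK pathways. IGF2R has no such kinase signal: it takes IGF2 into the cell for degradation and also carries lysosomal enzymes tagged with mannose 6-phosphate. The IGF binding proteins hold the ligands outside the cell, prolong their life and limit or release them to the receptor, and proteases such as PAPP-A cut them. In embryonic fibroblasts the system supports growth, survival and passage through the cell cycle.

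A level is given here as the log2 of the scanner's processed Cy3 signal minus the log2 of that array's 75th percentile, so that 0 is the 75th percentile. A log2 ratio is the difference of 2 levels, and a probe was counted as higher or lower at a 2-fold or larger difference. The median processed signal of gene spots was between 123 and 224 on the 3 arrays, and 68.3% to 81.7% of gene spots were well above background, with the highest values of both on the control array. No gene spot was saturated, and all 15 IGF system probes were well above background on every array. The control array was scanned in another session than the BP arrays, and its signals carried no correction for the intensity gradient across the array, which the BP arrays had. Scan session and treatment therefore cannot be told apart in either comparison with the control, while BP40 against BP10 lies within 1 session. Relative to each array's 75th percentile, spike-in RNA read 0.80 higher (log2) on the BP40 array than on the control. Scaling to this RNA would lower every BP40 level by that amount.

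The probes are oligonucleotides of 60 bases printed on the glass, and the first 30 bases of 8 of them are shown: the 5 Igf1 probes, whose ratios disagree, and those of Igf2, Igfbp3 and Igfbp5, which differed most between the doses. Capitals mark bases that the pair of overlapping Igf1 probes have in common. Positions are in the mouse build mm9, as the array files give them. Exon and UTR annotation of this build was not used here.
Igf1 probe at transcript base 889, chr10:87393561-87393620, plus strand: cctaccaaataacaataataAGTCCAATAA
Igf1 probe at transcript base 909, chr10:87393581-87393640, plus strand: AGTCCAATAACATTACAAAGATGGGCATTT
Igf1 probe at transcript base 3252, chr10:87395924-87395983, plus strand: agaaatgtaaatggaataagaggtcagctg
Igf1 probe at transcript base 6909, chr10:87399581-87399640, plus strand: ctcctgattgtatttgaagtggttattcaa
Igf1 probe of the other transcript record, chr10:87378456-87378515, plus strand: aaccattaaaaacatgccaccaagaccttc
Igf2 probe, chr7:149839661-149839720, minus strand: atcaaattatgtggtaattctgcaatgtag
Igfbp3 probe, chr11:7106594-7106653, minus strand: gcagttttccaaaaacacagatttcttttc
Igfbp5 probe, chr1:72904829-72904888, minus strand: cacatcacatattactgtagctctctatag

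Among the 10 genes, Igfbp5 differed most between the arrays, and it did so in opposite directions at the 2 doses. At BP10, 1 of the 15 probes was at least 2-fold higher than the control (Igfbp5) and 1 was at least 2-fold lower (an Igf1 probe), and 13 were neither. Over all gene probes, 2.99% were at least 2-fold higher and 17.0% lower in that comparison, and over gene probes brighter than the 75th percentile 0.772% were higher and 1.51% lower. At BP40, no IGF system probe was 2-fold higher than the control and 1 was lower (Igfbp3), against 2.73% higher and 14.9% lower over all gene probes and 0.795% and 0.833% over the bright ones. BP40 against BP10 had 0 probes higher and 1 lower (Igfbp5), against 3.09% and 2.86% over all gene probes and 1.09% and 0.628% over the bright ones. A single lower probe of 15 is a smaller share than that of all gene probes in both comparisons with the control. It is a larger share than that of the bright ones, but the lower probes there, of Igf1 and Igfbp3, lay below that brightness themselves. The single higher probe at BP10 and the single lower one between the doses were larger shares than both of those given. Each count rests on 1 probe, so these counts are no result about the system as a whole. The values of its single genes follow.

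Taking the brightest probe of each gene as its leading probe, the log2 ratios of the 10 genes had a median of -0.29 for BP10 against the control, of -0.41 for BP40 against the control and of -0.03 between the doses (BP40 against BP10). The medians over all gene probes were -0.23, -0.14 and 0.04, and over the bright gene probes -0.08, 0.06 and 0.14. The ratio lay below 0 in 6 of the 10 genes at BP10 and in 9 of 10 at BP40. Igf1r lay above 0 at both doses. Its BP40 ratio of 0.16 turned to -0.04 under normexp background correction, -0.02 with no array detrended and -0.15 with all of them detrended. Among the 9 genes below 0 at BP40, Igfbp2 (-0.02) and Igf2 (-0.07) were close to 0, and Igf2 turned to 0.02 with all arrays detrended. The 9 of 10 thus rests on doubtful signs. Both comparisons share the control array, so they do not count as separate evidence. From the highest to the lowest level, the arrays ran control, BP10, BP40 for 3 genes (Igf2r, Igfbp3 and Igfbp6), control, BP40, BP10 for 3 genes (Igf1, Igfbp4 and Igfbp7) and BP10, control, BP40 for 3 genes (Igf2, Igfbp2 and Igfbp5), and Igf1r ran BP40, BP10, control. The places of Igf1r, Igfbp2 and Igfbp4 in these orders rest on ratios that changed sign in some settings, as does the order of control and BP40 for Igf2, and the spike-in scaling turns the order of the BP arrays for Igf1 and Igfbp7.

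Several of these steps were small beside the disagreement between probes of 1 gene. Over 3194 genes with exactly 2 probes above background, the median SD between the log2 ratios of both probes was 0.27 for BP10 against the control, 0.19 for BP40 against the control and 0.21 for BP40 against BP10. The leading probe's ratio was more than 2 such SDs from 0 in 5 genes at BP10 (Igf1, Igf2, Igfbp3, Igfbp5 and Igfbp7), in 6 genes at BP40 (Igf1, Igf2r, Igfbp3, Igfbp5, Igfbp6 and Igfbp7) and in 3 genes between the doses (Igf2, Igfbp3 and Igfbp5). No leading-probe ratio of Igf1r, Igfbp2 or Igfbp4 was that far from 0. Of the leading probes of all genes above background, 43.0%, 52.2% and 33.8% were that far from 0 in the 3 comparisons, and of the bright ones 13.3%, 26.0% and 25.4%, so these counts do not set the system apart. Neither this SD nor the error between spots used below covers the spread between cultures, which was not measured.

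**Figure D1:**
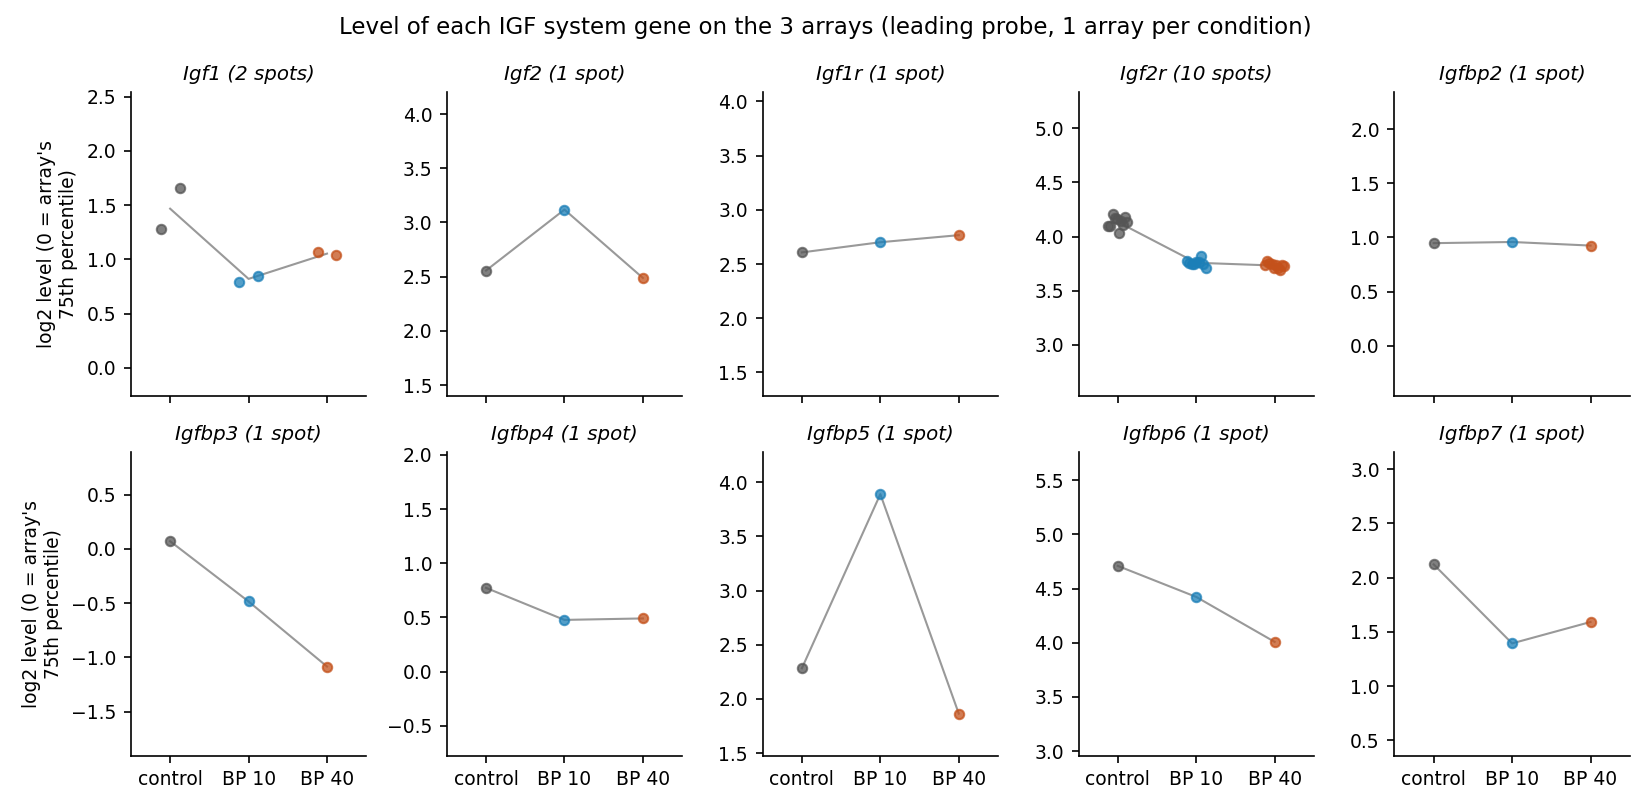
Level of each of the 10 genes on the control, BP10 and BP40 arrays, from the leading probe. The y axis is the log2 level, with 0 at the array's 75th percentile and the same span in every panel. Points are single spots, outlier spots left out, and the grey line joins their means. Igfbp5 stands at 3.89 on the BP10 array against 2.28 on the control and 1.86 on the BP40 array, whereas Igfbp3 and Igfbp6 step down from the control to BP10 to BP40.

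Igf1, which encodes the ligand that mediates much of the growth response of tissues, was lower on both BP arrays by 3 of its 5 probes. The probe at base 6909 of the main transcript record, the farthest along it, had levels of 0.07 on the control, -1.01 on the BP10 and -0.52 on the BP40 array. Its BP10 ratio of -1.08 ± 0.08 (error between spots) passed the 2-fold mark, with both of its spots lower than both control spots, and its BP40 ratio was -0.59 ± 0.08. Of 6560 gene probes within 1 log2 unit of its brightness, 4.39% were at least as far below the control at BP10.

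The overlapping Igf1 probes at bases 889 and 909, which share 40 of their 60 bases and are not independent, gave the same direction with smaller ratios. The first had levels of 1.52, 0.63 and 0.96 on the control, BP10 and BP40 arrays, and ratios of -0.89 ± 0.07 and -0.56 ± 0.08. The second, the leading probe, had levels of 1.47, 0.82 and 1.05, and its ratios were -0.65 ± 0.19 and -0.41 ± 0.19. Its wider error comes from the control array, on which its 2 spots read 1.28 and 1.66. In all 3 of these probes the BP40 level lay between the control and the BP10 level, with BP40 against BP10 ratios of 0.33, 0.23 and 0.49, a direction that turned only under spike-in scaling.

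The other 2 Igf1 probes showed no such difference. The probe at base 3252 was dim, with levels of -2.44, -2.54 and -2.55, and its ratios of -0.10 ± 0.34 and -0.11 ± 0.34 were smaller than their errors. The probe at base 1027 of another transcript record lies 15105 bases upstream of the base 889 probe in the genome and had levels of 1.05 on the control and 1.16 on the BP10 array, with the BP40 level between them. Its ratios were 0.11 ± 0.24 and 0.05 ± 0.47, since its 2 spots differed with an SD of 0.35 on the control and 0.56 on the BP40 array. Whether different transcripts or the probes themselves gave the unlike ratios was not tested.

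**Figure D2:**
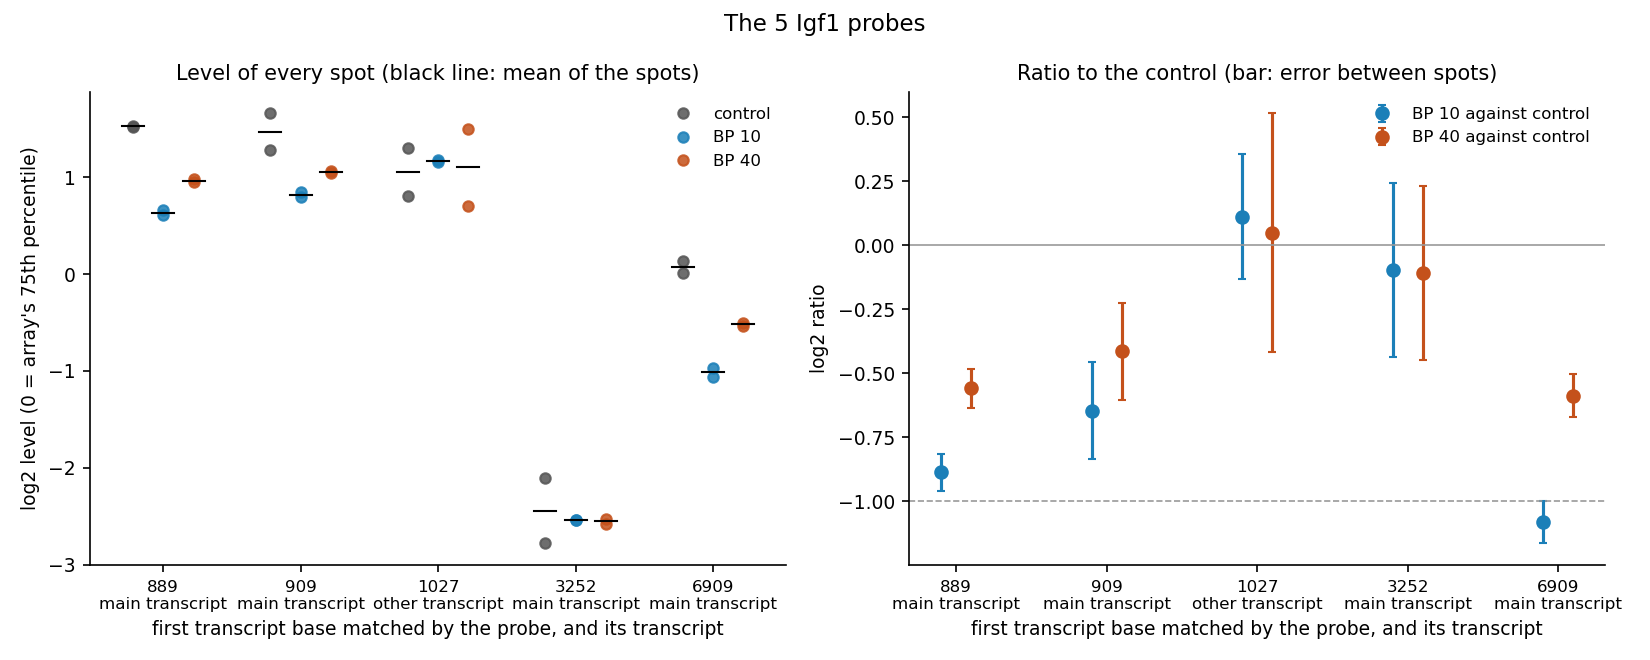
The 5 Igf1 probes, ordered by the first base of the transcript record they match, with the record that 4 of them share written as the main transcript. The left panel shows the log2 level of every spot by array, and levels of different probes are not comparable with each other. The right panel shows the log2 ratio to the control, with bars for the larger of the error from the probe's own spots and the error expected at its brightness. The probes at bases 889, 909 and 6909 lie below 0 at both doses, from -1.08 to -0.41, and the bars of the other 2 span 0 at both doses.

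Igf2, the imprinted ligand of embryonic growth, was measured by 1 probe with 1 spot. Its level was 2.56 on the control, 3.12 on the BP10 and 2.49 on the BP40 array. The BP10 array was thus the highest, 1.48-fold above the control (log2 ratio 0.56 ± 0.10), while BP40 and the control differed by less than the error between spots (-0.07 ± 0.10). BP40 against BP10 gave -0.63 ± 0.07, and 2.16% of 4529 gene probes of like brightness were at least as far below. No Igf2 ratio reached 2-fold.

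The receptors differed little. Igf1r, the signalling receptor, had levels of 2.61, 2.70 and 2.77 on the control, BP10 and BP40 arrays, and log2 ratios of 0.09 ± 0.10 and 0.16 ± 0.10 to the control. The sign of both turned with the background correction and with the handling of the intensity gradient, so that no direction can be given for Igf1r. Igf2r, the scavenging receptor, was the best measured gene of the system, with 10 spots spread over each array. Its level was 4.13 ± 0.05 on the control (SD of 10 spots), 3.76 ± 0.03 on the BP10 (9 spots, 1 outlier spot left out) and 3.73 ± 0.02 on the BP40 array.

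No Igf2r spot of either BP array reached the lowest control spot: the control spots ran from 4.03 to 4.21, the BP10 spots from 3.71 to 3.82 and the BP40 spots from 3.70 to 3.78. The ratios of -0.38 ± 0.03 and -0.40 ± 0.03 correspond to levels 1.30-fold and 1.32-fold lower than in the control, and both kept their sign under every scaling tried. Between the BP arrays the ratio was -0.03 ± 0.02, about the size of its error. These spots are technical repeats on 1 array each and measure the printing and scanning only. Among gene probes of like brightness, 15.3% at BP10 and 7.63% at BP40 were at least as far below the control.

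Igfbp5, a matrix-bound binding protein made by fibroblasts, muscle and bone cells, had a level of 2.28 on the control, 3.89 on the BP10 and 1.86 on the BP40 array, each from 1 spot. The BP10 array was the highest and the BP40 array the lowest. BP10 stood 3.04-fold above the control (log2 ratio 1.61 ± 0.10), and only 2 of 4573 gene probes of like brightness were as far above it. BP40 was 1.34-fold below the control (-0.42 ± 0.10), where 7.26% of those probes were at least as low. BP40 against BP10, the comparison within 1 scan session, gave a level 4.07-fold lower (-2.02 ± 0.07), and only 1 of the 4573 was as far below.

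Among 13188 gene probes brighter than the 75th percentile and measured on all arrays, 12 had a BP10 level at least 2-fold above both other arrays, with Igfbp5 among them. That pattern was chosen after its values were seen. With 1 spot and 1 culture, neither a defect of the spot nor an unusual culture can be told apart from an effect of the dose.

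Igfbp3, the main carrier of IGFs in blood and an inhibitor of growth in many cells, had levels of 0.07, -0.48 and -1.08 on the control, BP10 and BP40 arrays, a step down at each dose. The BP10 ratio was -0.56 ± 0.12. The BP40 ratio of -1.16 ± 0.12, 2.23-fold lower, passed the 2-fold mark, and 2.21% of 6573 gene probes of like brightness were at least as low. It did not pass under another background correction (normexp), which gave -0.98. BP40 was also below BP10, by 1.52-fold (-0.60 ± 0.09).

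Igfbp6, which binds IGF2 in preference to IGF1, followed the same order with smaller steps at levels of 4.71, 4.42 and 4.01. Its log2 ratios were -0.29 ± 0.11 at BP10 and -0.70 ± 0.11 at BP40, a level 1.63-fold lower, and BP40 lay below BP10 by -0.41 ± 0.08. At this brightness 2.29% of 2790 gene probes were at least as far below the control at BP40. Igfbp7, a relative of the family that binds IGFs weakly and sits in the vascular matrix, was lowest on the BP10 array, at 2.12, 1.39 and 1.59. Its ratios were -0.73 ± 0.10 at BP10, 1.66-fold lower, and -0.53 ± 0.10 at BP40, with the BP arrays 0.20 ± 0.08 apart.

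Igfbp4 and Igfbp2 were the binding proteins with the smallest ratios at BP40. Igfbp4, an inhibitor of IGF action that PAPP-A cuts to free the ligand, read 0.77, 0.48 and 0.49, and its ratios of -0.30 ± 0.11 and -0.28 ± 0.11 were nearly equal at both doses. Igfbp2, a fetal binding protein, had probes at transcript bases 946 and 1082. The second, the leading probe, read 0.95, 0.96 and 0.93 and the other 0.42, 0.38 and 0.29, and their 4 ratios to the control lay between -0.13 and 0.01. The Igfbp2 and Igfbp5 genes are neighbours on chromosome 1 on opposite strands, with their nearest probes 5.96 kb apart, and at BP10 Igfbp5 differed 3.04-fold from the control where both Igfbp2 ratios were smaller than their errors. With all arrays detrended, the leading Igfbp2 probe gave -0.35 at BP10 and -0.38 at BP40, and the other -0.15 and -0.23. With no array detrended, their BP10 ratios were -0.03 and 0.08.

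**Figure D3:**
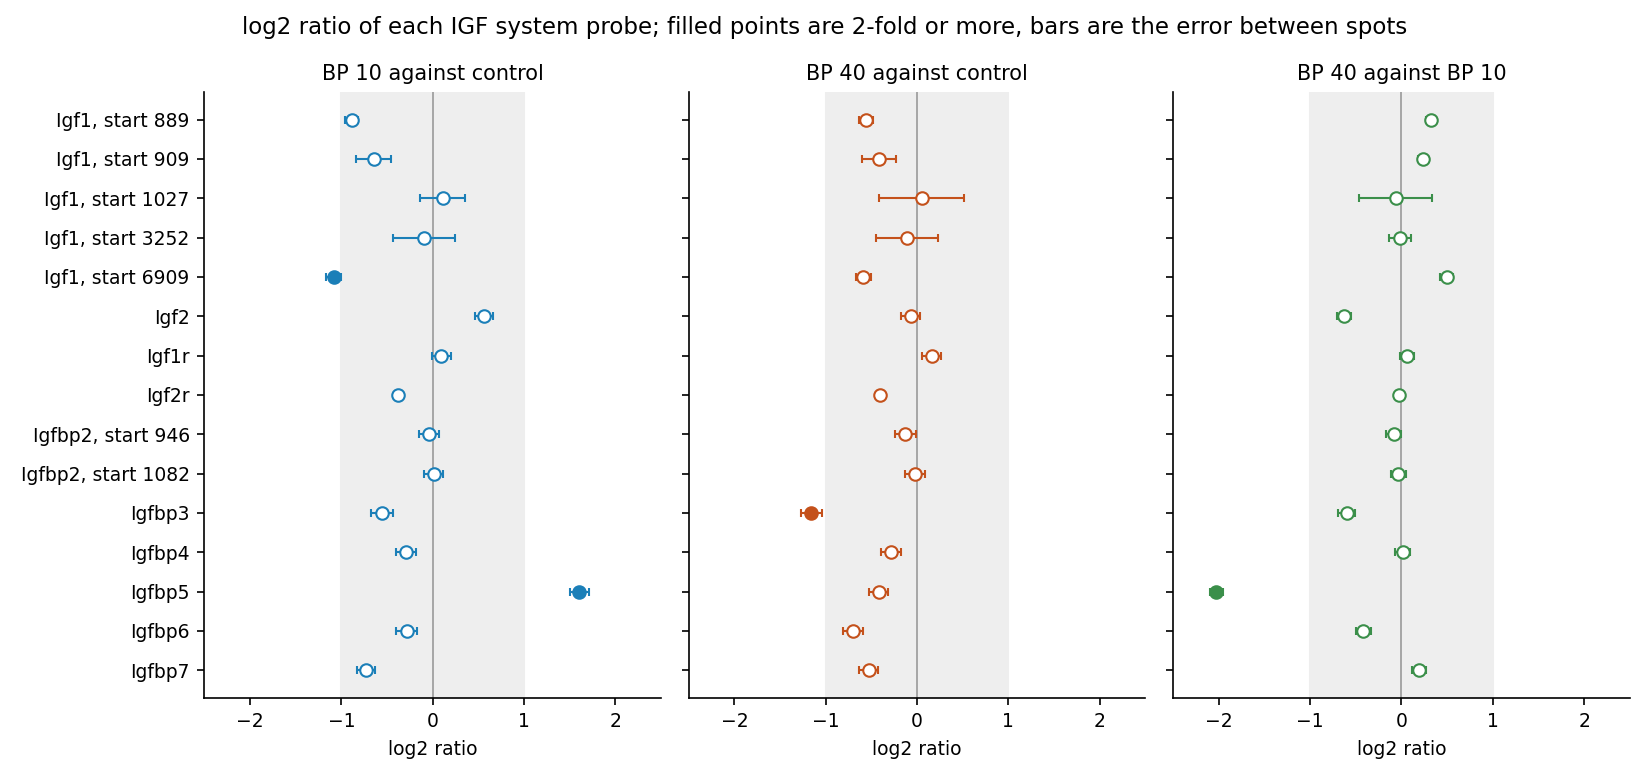
log2 ratio of each of the 15 probes in the 3 comparisons. Filled points are 2-fold or more from the array compared with, the grey band marks less than 2-fold, and the bars are the larger of the error from the probe's own spots and the error expected at its brightness. For genes with several probes the label gives the first transcript base matched. Filled points are Igfbp5 (1.61) and 1 Igf1 probe (-1.08) at BP10, Igfbp3 (-1.16) at BP40, and Igfbp5 (-2.02) between the doses.

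**Figure D4:**
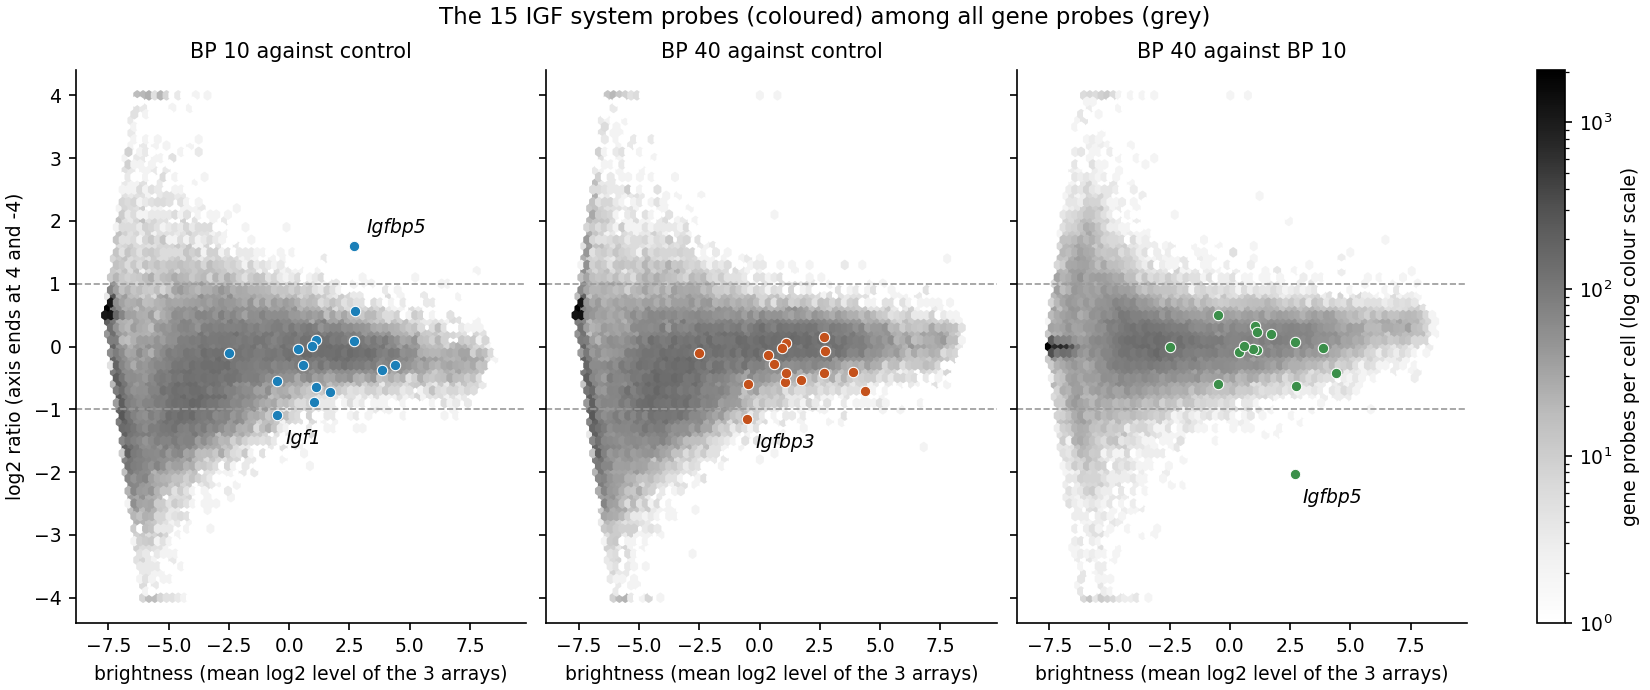
log2 ratio against brightness (mean log2 level of the 3 arrays) for all gene probes, as grey cells shaded by their number on a log colour scale, and for the 15 IGF system probes as coloured points. Dashed lines mark 2-fold. Most probes more than 2-fold below the control are dim, where the control array reads higher, whereas Igfbp5 lies outside the bulk of probes of its brightness at BP10 and between the doses.

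The promoters of the 2 binding proteins with the largest differences are shown with the short motifs found in them. The sequences are the 250 bases before the annotated start, from RefSeq on GRCm38.p6, written along the gene. Both strands were searched for the TATA box TATAAA and its variants TATATA and TATTTA, the Sp1 box GGGCGG, the E-box CACGTG, the antioxidant response element core TGACNNNGC and the FOXO element GTAAACA. The TATA forms can overlap each other, and they were chosen after the sequences had been read. Capitals mark matches.
Igfbp5 promoter, chr1:72874866-72875115, minus strand: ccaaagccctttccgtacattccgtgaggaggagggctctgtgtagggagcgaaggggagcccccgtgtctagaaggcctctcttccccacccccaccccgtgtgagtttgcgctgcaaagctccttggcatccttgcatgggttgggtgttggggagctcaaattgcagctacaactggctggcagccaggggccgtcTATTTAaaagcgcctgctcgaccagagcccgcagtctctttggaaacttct
Igfbp3 promoter, chr11:7213924-7214173, minus strand: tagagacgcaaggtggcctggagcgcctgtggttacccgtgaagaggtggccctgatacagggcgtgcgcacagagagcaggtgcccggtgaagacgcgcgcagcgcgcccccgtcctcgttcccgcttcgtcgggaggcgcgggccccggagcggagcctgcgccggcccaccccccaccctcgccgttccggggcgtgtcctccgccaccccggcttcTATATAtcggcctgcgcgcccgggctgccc

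The Igfbp5 window held TATTTA with its first base 51 bases before the start, a match that 12.7% of 32851 promoters hold. The Igfbp3 window held TATATA with its first base 30 bases before the start, which 5.25% hold. TATAAA was found before Igfbp4 and Igfbp6, against 12.4% of all promoters. GGGCGG was found in 6 of the 14 windows of the system, before Igf2, Igf1r, Igf2r, Igfbp2 and Igfbp7, against 32.7%, and CACGTG before Igf2r and Igfbp2, against 6.02%. TGACNNNGC (10.2% of promoters) and GTAAACA (3.17%) were in none of the 14 windows. These are matches of letters within 250 bases and say nothing of binding.

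Further genes of the IGF axis were read from lists of the pathway, each gene by its leading probe, as a description with no list test. By these probes, none of the 12 genes around the receptor, the insulin receptor and adaptors such as Irs1, Irs2, Shc1 and Grb2, was 2-fold higher or lower in any of the 3 comparisons. Their median log2 ratio was -0.12 at BP10 and 0.00 at BP40. The same held for the 18 genes of the PI3K-AKT-FOXO-mTOR relay, with medians of -0.03 and 0.21, for the 8 genes of mRNA-binding and imprinted partners such as H19 and Igf2bp1, with medians of -0.18 and -0.35, and for the 7 genes of the mannose 6-phosphate pathway, the other role of Igf2r, with medians of 0.04 and 0.07. At BP10, 2.99% of all gene probes were 2-fold higher and 17.0% lower, and of the bright ones 0.772% and 1.51%. At BP40 these shares were 2.73% and 14.9%, and 0.795% and 0.833%. Between the doses they were 3.09% and 2.86%, and 1.09% and 0.628%. Counts of 0 in lists this small are thus no result about these genes. Some second probes of the listed genes did pass the mark. In the relay, 4 of 17 further probes did so: 1 of Akt2 (1.15 at BP10), 1 of Foxo3 (3.07 at BP10, 1.06 at BP40 and -2.01 between the doses, from a control level of -5.03) and 2 dim ones of Foxo4 (-1.41 and -1.50 at BP10 and BP40 for 1, -1.05 at BP40 for the other). Of 11 further probes of the partners, 1 of Hmga2 was higher at BP10 (1.02), while those of the adaptors and the mannose 6-phosphate pathway were all under 2-fold. The leading probes of Akt2, Foxo3 and Hmga2 gave -0.01, -0.39 and 0.00 at BP10, so the probes of these genes disagree. H19, the imprinted RNA next to Igf2, read 7.74, 7.44 and 7.90 on the control, BP10 and BP40 arrays.

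Differences past 2-fold among the proteases, partners and other carriers were mostly lower values at BP10, the direction that 17.0% of all gene probes had there. Of 14 genes, 0 were higher and 4 lower at BP10, 0 higher and 1 lower at BP40, and 1 higher and 0 lower at BP40 against BP10, with medians of -0.34, -0.31 and 0.09. Igfals, which holds the circulating complex of IGF and IGFBP3 together, was the gene of the lists that was 2-fold lower at both doses. It was dim, at -3.11 on the control, -4.58 on the BP10 and -4.78 on the BP40 array, a range of brightness in which lower values on the BP arrays were common. Stc2, a stanniocalcin that inhibits PAPP-A, read 0.09, -1.69 and 0.03, so that only its BP10 level stood apart, with log2 ratios of -1.79 at BP10 and 1.73 for BP40 against BP10. Of the genes outside the system, Igfals and the markers Lum and Lyz2 are named because they were 2-fold different in 1 direction at both doses, and the rest were named after their values were seen.

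Stc1 (-1.28) and Vtn (-1.08) were the other genes lower at BP10, both dim like Igfals. A second probe of Ctsd, a lysosomal protease, was higher at BP10 (1.41) where its leading probe gave 0.17. Pappa itself read 2.78, 2.49 and 2.89, and Htra1, a protease that cuts binding proteins, read 5.18, 5.26 and 6.04, with no 2-fold difference. Igfbp1 and Igfbpl1, the other family members on the array, were not well above background on any array. Of 12 genes that FOXO factors can induce, 1 was lower at BP10 (Klf15, -1.15), none was past 2-fold at BP40, and 1 was higher at BP40 than at BP10 (Sesn3, 1.08), with medians of -0.04 and 0.11 against the control. A second Txnip probe was also just past the 2-fold mark at BP10, where the leading one gave 0.13.

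**Figure D5:**
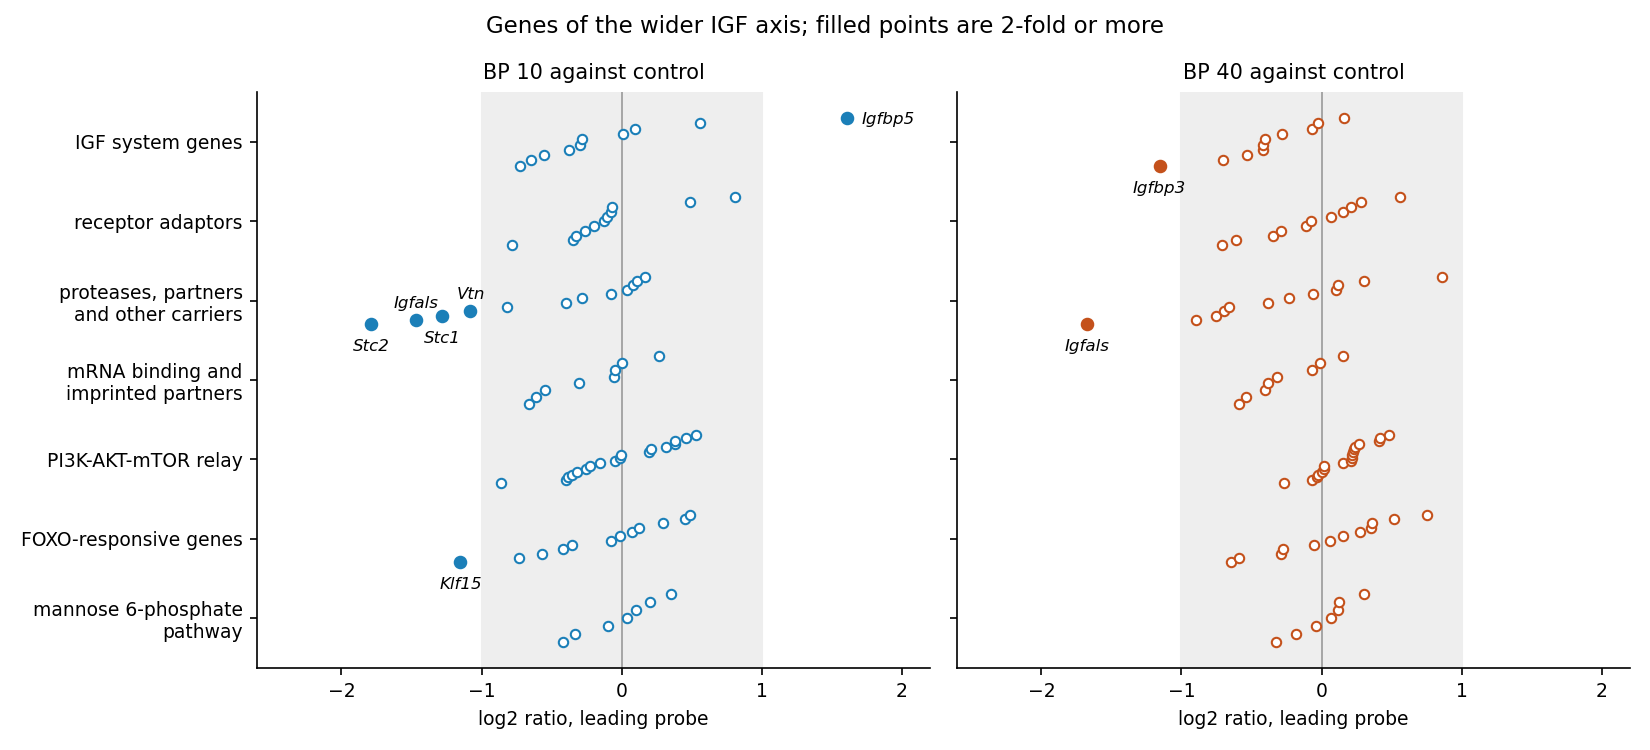
log2 ratio to the control of the genes of each list, 1 point per gene above background on at least 1 array, by leading probe. The left panel is BP10 and the right panel BP40, filled points are 2-fold or more, and the grey band marks less than 2-fold. Points within a list are spread vertically in order of their ratio. By leading probes, at BP10 the named genes below the band are Stc2, Igfals, Stc1, Vtn and Klf15 and the gene above it is Igfbp5, and at BP40 only Igfbp3 and Igfals lie outside it.

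The labelled cell type was checked against marker genes. All 11 fibroblast markers were well above background on every array. Their summed signal, as log2 of the sum relative to the 75th percentile, was 10.52 on the control, 10.07 on the BP10 and 10.19 on the BP40 array, and their median log2 ratio was -0.58 at BP10 and -0.60 at BP40. Lum was 2-fold lower at both doses (-3.19 and -2.21), Dcn at BP10 (-1.05) and Col3a1 at BP40 (-1.22), while 9 of 11 were neither at each dose. By leading probes, Igf1, Igf2r, Igfbp3, Igfbp4, Igfbp6 and Igfbp7 were lower on both BP arrays, whereas Igf2, Igf1r, Igfbp2 and Igfbp5 were not. Most fibroblast markers were also lower on both, but Col1a2 (0.10) and Fn1 (0.15) lay above 0 at BP40. The part of the markers in the differences of the IGF system was not tested. In a bulk culture, fewer cells of a type and less RNA per cell cannot be told apart.

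Markers of other cell types were read in the same way, and sums over different probes do not compare the amounts of cells. All 7 macrophage markers were above background on every array, with sums of 5.07, 4.75 and 4.92 on the control, BP10 and BP40 arrays, and median log2 ratios of -0.30 at BP10 and -0.06 at BP40. Lyz2 was more than 2-fold higher at both doses (1.26 at BP40), and Cd68 lay above 0 at both (0.13 and 0.25). Csf1r was below 0 at BP10 and above it at BP40 (-0.30 and 0.30). Adgre1 (-0.45 and -0.18), Ptprc (-0.30 and -0.48), Itgam (-0.44 and -0.42) and Cd14 (-0.41 and -0.06) lay below 0 at both, less than 2-fold by their leading probes. Of the endothelial markers 4 of 6 were above background on every array, with Cdh5 and Tie1 at background. Their sums of 3.07, 2.76 and 3.11 came almost wholly from Kdr (3.01, 2.66 and 3.05). Skeletal muscle markers gave sums of 3.95, 3.97 and 4.09 (4 of 6 on every array), of which Acta1 alone made 3.89, 3.89 and 4.04. Sums were, for cartilage and bone markers, 2.40, 2.47 and 2.34 (5 of 6) and, for epithelial markers, 1.38, 1.43 and 0.80 (3 of 5, with Epcam and Cdh1 at background). Hepatocyte markers, of the tissue that makes circulating IGF1 and IGFALS, summed to -1.33 on the control and -1.59 on the BP40 array and were lowest on the BP10 array, with 3 of 6 on every array and Alb and Ttr at background on all of them. The part of any of these cells in the values of the IGF system was not tested.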

How the data were processed

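Total RNA of 3 MEF cultures was labelled with Cy3 and hybridised to Agilent mouse 8x60K arrays on 1 slide, 1 array per condition. The authors scanned them and deposited the output of Feature Extraction 10.5.1.1 (annotation mm9). Its background-subtracted and processed signals were used, and for the normexp alternative its mean signal and local background. The processed intensity deposited for the BP arrays was divided by a fitted surface (multiplicative detrending) and that of the control was not. The height of this surface at each spot is a ratio that the deposited files hold for every array, and it was used in the alternatives. The deposited series table holds the same processed intensity values (100% equal at a relative tolerance of 0.0001), and every column was mapped to a sample.

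Log2 processed signals were scaled to each array's 75th percentile over gene spots, outlier spots left out, and spots of a probe averaged (Python 3.11.15, pandas 2.3.3; normexp and quantile alternatives in R 4.3.3 with limma 3.58.1). A probe counted as 2-fold different had to be well above background on at least 1 array compared. The error between spots of a log2 ratio is the larger of the value from the probe's own spots and that expected from the 399 probes with 10 spots (median SD 0.14, 0.08 and 0.09 on the control, BP10 and BP40 arrays), taken from those within 1 log2 unit of its brightness. The number of arrays limits the precision, and depth is not defined for arrays. Named genes are all members and, of each list, those 2-fold different in 1 direction at both doses, with others added after their values were seen as stated. The members and lists were chosen with earlier results of these data known. The counting of 2-fold differences was checked on simulated arrays. Alternatives were other scalings and background corrections, thresholds and filters on dim probes. Added after seeing the data were no detrending on any array, detrending on all arrays, and scaling to the E1A spike-in RNA. A RefSeq gene table matched 47.4% of the probes by accession, and probe names are those of the files.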

Additional observations from a re-analysis of the deposited data

Results flagged for a closer look

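Igfbp5 was marked because its BP10 and BP40 levels moved away from the control in opposite directions, by log2 ratios of 1.61 and -0.42, which leaves BP40 below BP10 by -2.02. This difference was not tested, since each condition has 1 array and the probe has 1 spot on each. Under the other scalings and background corrections, the spike-in scaling apart, the BP40 against BP10 ratio ran from -2.16 to -2.02.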

How the results depend on the processing

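No paired analysis was possible because no condition has a second array. As reported, 2, 1 and 1 of the 15 probes were 2-fold different for BP10 against the control, BP40 against the control and BP40 against BP10. A threshold of 1.5-fold gave 5, 3 and 3, and 3-fold gave 1 and 0 against the control. Normexp background correction gave 0 for BP40 against the control. Scaling to the E1A spike-in, whose probes read 0.80 higher (log2) on the BP40 array than on the control, gave 9 for BP40 against the control and 4 for BP40 against BP10. It lowers every BP40 ratio by that amount, so the BP40 values are relative to the bulk of the array. Of 435 recomputed log2 ratios of member probes and genes, 395 moved by less than the comparison's median SD between the probes of 1 gene. The other 40 moved by more (30 of them under spike-in scaling), and 0 that had passed the 2-fold mark changed sign. Part of the 395 could not move. The 45 ratios from the series table repeat the same values, as do medians over probes for genes with 1 probe. BP40 against BP10 is also unchanged when all arrays are detrended, since both BP arrays already were. The 395 is therefore no measure of stability. Quantile normalization moved the median ratio of all gene probes by 0.20 (BP10 to control) and 0.14 (BP40 to control), and the normexp correction moved it by 0.18 and 0.23. Smaller ratios changed sign in some settings for Igf1r, for Igfbp2, for the Igf1 probes at bases 3252 and 1027, for Igfbp4 between the doses (0.01 to -0.06) and for Igf2 at BP40 when all arrays were detrended. Spike-in scaling also turned BP40 against BP10 for Igfbp7 and the Igf1 probes at bases 889, 909 and 6909. Detrending lowered the median SD of repeated spots from 0.14 to 0.08 on the BP10 array and raised it from 0.14 to 0.20 on the control. Leaving out a replicate was not possible with 1 array per condition.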
